A study of Mus musculus with 6 samples.

Results

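C-type lectin receptors were examined in GFP+/F4/80+/Ly6C Low macrophages (MPs) sorted from cardiotoxin-injured mouse muscle. The genes were taken by name from the deposited table, which held 9 of the 10 receptors looked for (Clec4a1, Clec4a2, Clec4a3, Clec4d, Clec4e, Clec4n, Clec5a, Clec7a and Clec12a) among 13008 genes, while Clec9a was not analysed here. The RNA-seq compared 3 Control and 3 Cripto KO samples, all labelled as male C57BL/6J mice of 3 months. Tibialis anterior, gastrocnemius and quadriceps muscles were injured with cardiotoxin, and cells were taken on day 5. The labels give the Control genotype as wild type and the Cripto KO genotype as Tg:LysMCre::Cripto-/-. The study instead describes LysMCre and the R26 mTmG reporter in both groups. In its account Cripto was intact in controls and could be deleted by Cre (Cripto fl/fl) in Cripto KO mice. LysMCre acts in the myeloid lineage and not in macrophages alone, and the study describes an incomplete deletion of Cripto. The question put to these data was whether Ly6C Low MPs without Cripto keep the expression of wild-type cells.

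C-type lectin receptors are surface proteins with which myeloid cells sense sugars and lipids of microbes and molecules set free by damaged cells. Clec7a (Dectin-1) signals through a tyrosine motif in its own tail, while Clec4n (Dectin-2), Clec4e (Mincle) and Clec4d (MCL) depend on the Fc receptor γ-chain encoded by Fcer1g, and Clec5a (MDL-1) depends on the adaptor DAP12 encoded by Tyrobp. These activating receptors converge on the kinase Syk and the adaptor Card9, which lead to NF-κB and cytokine genes. Clec4a2 (DCIR) and Clec12a (MICL) carry an inhibitory tyrosine motif that recruits phosphatases such as Ptpn6. Clec9a (DNGR-1), a receptor for actin filaments exposed by dead cells, is best known from cross-presenting dendritic cells.

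The genes lie in 3 places on chromosome 6 (GENCODE release M21, GRCm38). Clec4a1, Clec4a3, Clec4a2, Clec4n, Clec4d and Clec4e stood in this order within 368.0 kilobases, at chr6:122921848-123289870, a stretch that held 9 protein-coding genes, 7 of them in the table. Clec12a (chr6:129342691-129365303) and Clec7a (chr6:129461591-129472779, which this annotation types as a polymorphic pseudogene) lay further along the chromosome, and Clec5a (chr6:40574894-40585821) lay apart from both. Exons of the 9 genes overlapped those of no other annotated gene. Of their words of 31 bases, 10.9% in Clec4a2 also occurred in transcripts of other genes, of which Clec4a4 shared the most (4.96%). In the other 8 receptors this was between 0 and 2.19%, so the reads of Clec4a2 are the least certain.

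The 250 bases before the RefSeq start (GRCm38.p6) are printed for Clec4d and Clec4e, neighbours whose values moved together between samples, and for Clec5a and Clec7a, whose log2 differences between the groups had opposite signs. The letters searched on both strands were GAGGAA (the core bound by PU.1, a myeloid transcription factor), TTGCNNAA (C/EBP), TGANTCA (AP-1), and GGGA followed by 4 bases of any kind and CC (NF-κB). Capitals mark a match, and none of the matches shown overlapped another.
Clec4d, chr6:123261857-123262106, plus strand: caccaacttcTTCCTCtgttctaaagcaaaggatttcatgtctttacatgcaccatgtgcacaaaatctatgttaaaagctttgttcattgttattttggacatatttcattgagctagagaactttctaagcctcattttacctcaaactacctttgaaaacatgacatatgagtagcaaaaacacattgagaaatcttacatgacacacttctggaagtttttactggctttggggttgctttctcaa
Clec4e, chr6:123289872-123290121, minus strand: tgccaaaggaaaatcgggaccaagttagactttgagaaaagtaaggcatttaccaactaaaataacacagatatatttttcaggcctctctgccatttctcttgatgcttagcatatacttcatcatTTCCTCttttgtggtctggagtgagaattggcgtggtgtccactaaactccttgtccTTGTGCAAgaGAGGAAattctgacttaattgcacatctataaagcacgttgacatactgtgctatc
Clec5a, chr6:40585806-40586055, minus strand: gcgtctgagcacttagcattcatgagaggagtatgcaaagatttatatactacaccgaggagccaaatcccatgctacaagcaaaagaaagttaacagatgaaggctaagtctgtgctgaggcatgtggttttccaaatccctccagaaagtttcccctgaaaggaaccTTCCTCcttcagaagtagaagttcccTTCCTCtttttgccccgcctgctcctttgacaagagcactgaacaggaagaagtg
Clec7a, chr6:129472786-129473035, minus strand: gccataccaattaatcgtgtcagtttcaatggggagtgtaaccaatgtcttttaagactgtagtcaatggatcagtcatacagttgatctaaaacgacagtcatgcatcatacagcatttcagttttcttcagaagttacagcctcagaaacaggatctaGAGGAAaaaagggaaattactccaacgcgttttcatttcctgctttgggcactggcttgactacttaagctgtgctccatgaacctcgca
GAGGAA or its complement was present once in Clec4d and Clec7a and 2 times in Clec4e and Clec5a, and the match to TTGCNNAA was in Clec4e, between 66 and 59 bases before the start. RefSeq promoters were matched for 8 of the 9 receptors in the table, the exception being Clec4n. GAGGAA was found in 6 of these 8, against 23.1% of 27025 promoters of the same length. TTGCNNAA was found in 2 (9.55% of all promoters), TGANTCA in 1 (6.85%) and the NF-κB letters in 1 (17.4%). These matches describe letters and say nothing of binding.

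The values are normalized signals, in which each gene's reads, raised by 0.5, were scaled to a library of 1000000. The library size used differed from the sum of the recovered reads, by a share that was not the same in each sample. The recovered reads summed to between 12688968 and 15659847 per sample, and the 9 receptors had between 396 and 6772 reads in each sample. The intervals given below are 95% intervals of limma. Libraries of the Control group stood apart in genes outside the receptors. Control replicate 1 had an Xist value of 171 and values of 4 Y-linked genes between 0.0368 and 0.184, against the label male, while Xist was between 0.114 and 0.885 in the other 5 samples. Control replicate 2 had a Lyz2 value of 11066. Lyz2 was 25.2 and 21.4 in Control replicates 1 and 3, and 21.2 to 28.3 in Cripto KO samples. How this bears on the wild-type label of the Control samples was not tested. The receptors and the 5 genes of each list with the smallest p were checked without Control replicate 1, Control replicate 2 or both. Where the log2 difference then moved by over 1.5 times, the value without them is given too. Other named genes, such as Cd4 and Mrc1, were not checked in this way. Cripto (Tdgf1) itself was not analysed here, and no check of the genotype labels on it was made.

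Markers of macrophages were high in every sample. Csf1r was between 1566 and 1815, Adgre1, which encodes F4/80, between 1065 and 1384, and the sum over 9 macrophage markers was 17110 to 18070 in Control against 16800 to 19000 in Cripto KO samples. Of these 9, Lyz1 varied the most between samples. It was 972, 410 and 1352 in Control against 1265, 1933 and 1177 in Cripto KO replicates 1, 2 and 3. Its log2 difference was 0.81 (limma, adjusted p = 0.609), with overlapping groups. Defining markers of dendritic cells were low, with Xcr1 between 0.694 and 1.28, Flt3 between 0.204 and 0.994 and Zbtb46 between 1.11 and 2.30. Over 7 markers of cross-presenting dendritic cells the sum was 104.2 to 122.8 in Control against 104.3 to 114 in Cripto KO samples, most of it from Wdfy4, Cadm1 and Batf3. Among neutrophil markers S100a9, Retnlg and Ngp had 0 reads in all samples, and Csf3r made up most of a sum of 99.1 to 106 in Control against 93.4 to 101.5 in Cripto KO samples. Ly6c2, which marks Ly6C High cells, was between 2.44 and 3.42, and the sum of 7 monocyte markers was 88.1 to 115 in Control against 96.6 to 110 in Cripto KO samples. Ccr2 was the highest of these 7, between 36.8 and 69.4, followed by Plac8 and Chil3, which were between 12.8 and 29.2. Among lymphocyte markers, Cd79a was at or under the floor of 3 reads in every sample and Cd4 was between 62.3 and 95.1. Cd4 had a log2 difference of -0.29 (limma, adjusted p = 0.529) with overlapping groups, and its part in the results on the receptors was not tested. In bulk RNA, fewer cells of one type and less RNA per cell cannot be told apart.

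Among the receptors, Clec7a and Clec4n were the most abundant per length and Clec5a the least. As normalized value per kilobase of exon over the 6 samples, Clec7a had a mean of 154 ± 22.0 (SD, n = 6) and Clec4n of 149.9 ± 20.05 (SD, n = 6), and these ranges overlapped. Clec4a3 followed with 110.3 ± 8.85 (SD, n = 6), its highest sample above the lowest of Clec4n. Below it, with no overlap with Clec4a3, came Clec4d with 81.1 ± 14.2 (SD, n = 6) and Clec4a1 with 79.5 ± 11.4 (SD, n = 6), which overlapped each other. Clec12a had 54.8 ± 6.33 (SD, n = 6) and Clec4a2 had 40.4 ± 5.29 (SD, n = 6), again with overlapping ranges, and the range of Clec12a reached into that of Clec4d but not of Clec4a1. Clec4e had 14.1 ± 4.69 (SD, n = 6) and Clec5a 9.48 ± 1.56 (SD, n = 6), which overlapped each other and not the genes above. Against all genes with a length, the levels of Clec7a and Clec4n were higher than 97.0% and 96.9% of them, and that of Clec5a was higher than 71.2%. With the length of the longest transcript in place of all exon bases, Clec12a had a mean of 93.8 and stood above Clec4a1, and the other 8 kept their order.

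**Figure D1:**
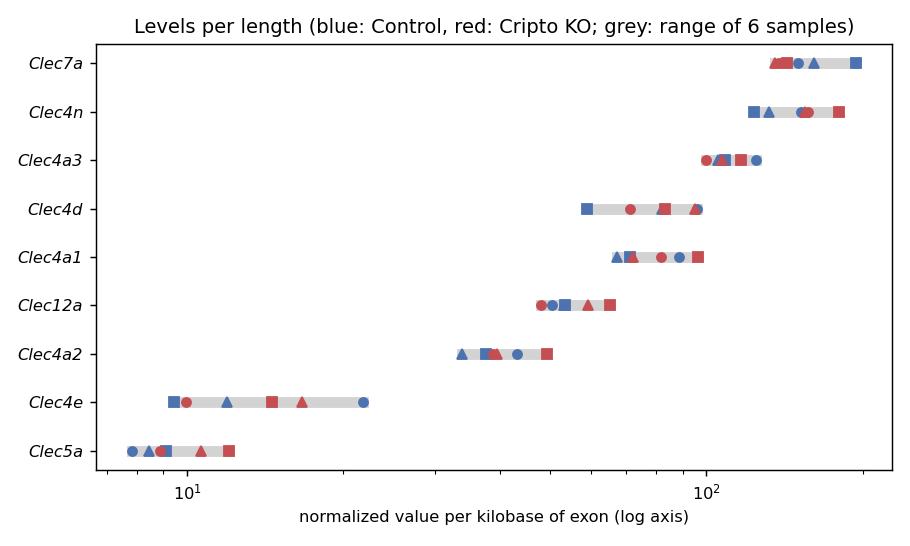
Normalized value per kilobase of exon (log axis) of each receptor in the 3 Control (blue) and 3 Cripto KO (red) samples, with circles, squares and triangles for replicates 1, 2 and 3 and a grey bar for the range. Clec7a and Clec4n lie between 124 and 194, and Clec4e and Clec5a between 7.83 and 21.8.

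Between Cripto KO and Control MPs, none of the 9 receptors had an adjusted p-value under 0.05 (limma, adjusted over all genes), where 17 genes of the table, or 0.131%, did (0.0461% higher and 0.0846% lower in Cripto KO). The count was 0 with edgeR and DESeq2 on the recovered reads too. At an unadjusted p-value under 0.05 there were 3 receptors (Clec4n, Clec5a and Clec7a), with limma and with both other tools, against 8.59% of all genes (1117 genes, 3.99% higher and 4.6% lower). The count was 1 without Control replicate 2, Control replicate 3, Cripto KO replicate 2 or Cripto KO replicate 3, and 4 without Cripto KO replicate 1, and it was 0 without the variance trend of limma and 2 with quantile normalization. In 2 receptors (Clec4n and Clec7a) the 3 values of one group lay outside those of the other, against 14.5% of all genes (6.43% higher and 8.02% lower). The ratios of Cripto KO to Control lay between 0.828 and 1.24, and the 95% intervals of all 9 lay within 0.633 and 1.56, both reached by Clec4e. Of the receptors, 6 had a log2 difference (Cripto KO minus Control) above 0, with a median of 0.13 over the 9, while the median over all genes was -0.01. The median was 0.03 without Cripto KO replicate 2 and 0.25 without Control replicate 1.

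**Figure D2:**
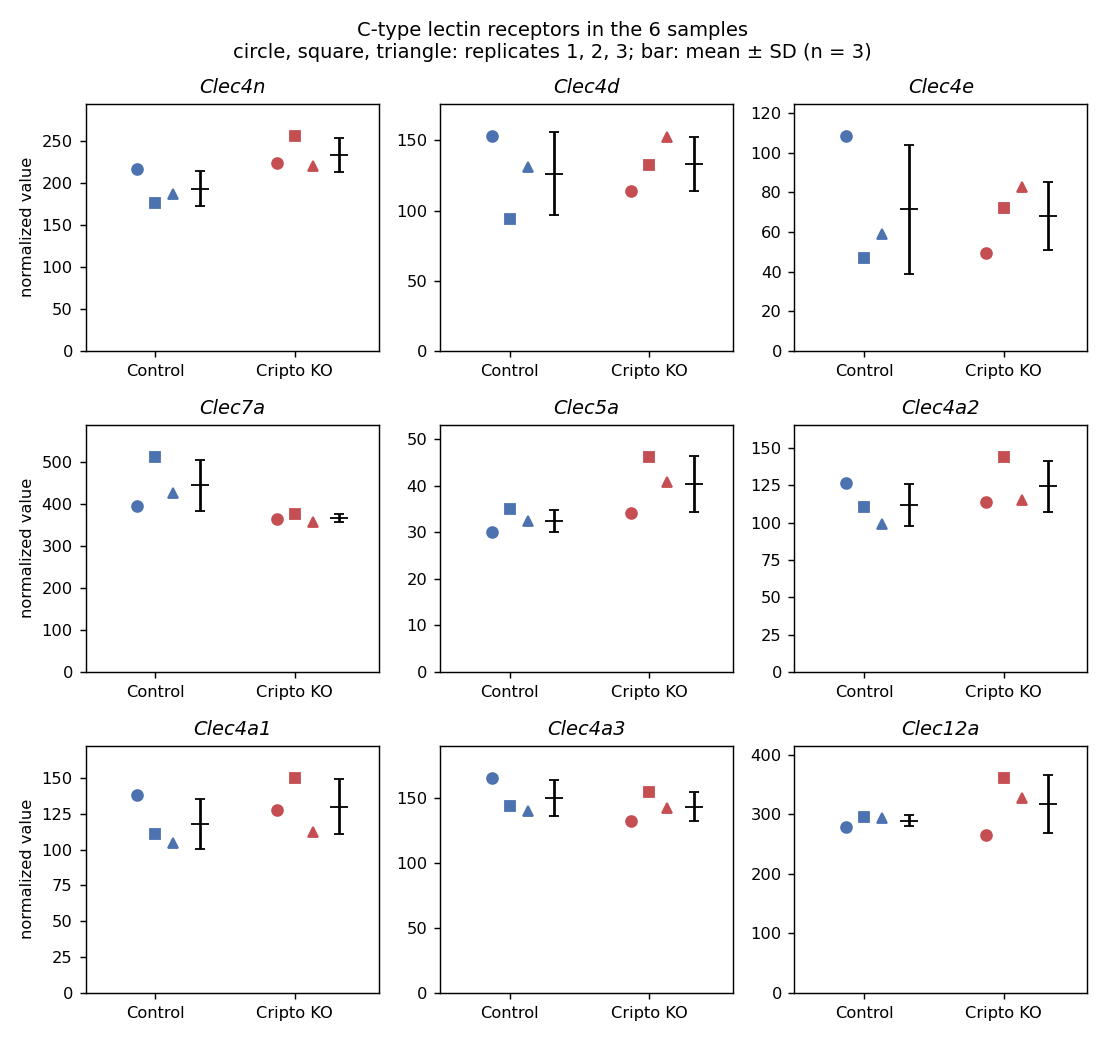
Normalized values of the 9 receptors in each Control (blue) and Cripto KO (red) sample, with replicates as circles (1), squares (2) and triangles (3) and the mean ± SD of 3 samples as black bars. The Cripto KO values of Clec4n lie above and those of Clec7a below all Control values, and in the other 7 panels the groups overlap.

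Clec4n, which encodes a receptor for fungal mannans, had values of 216, 175 and 187 in Control replicates 1, 2 and 3 and of 223, 256 and 220 in Cripto KO replicates 1, 2 and 3. All Cripto KO samples were above all Control samples, the closest pair being Control replicate 1 and Cripto KO replicate 3. The mean was 193 ± 21.1 (SD, n = 3) in Control against 233 ± 19.8 (SD, n = 3) in Cripto KO, a log2 difference of 0.27 (standard error 0.09, interval 0.06 to 0.48, adjusted p = 0.50 in limma). Without Control replicate 1 it was 0.36 (limma, adjusted p = 0.203), and without both Control replicates 1 and 2 it was 0.31.

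Clec4d and Clec4e encode partner receptors for glycolipids of the mycobacterial wall, and Clec4e also recognizes a nuclear protein released by dying cells. Clec4e had values of 108, 46.9 and 59.2 in Control replicates 1, 2 and 3, and of 49.4, 72.2 and 82.5 in Cripto KO replicates 1, 2 and 3. The groups overlapped fully, since the highest and the lowest sample were both Control. Clec4d had values of 153, 94.3 and 131 in Control against 114, 133 and 152 in Cripto KO replicates 1, 2 and 3, with the same samples at the ends. The log2 difference of Clec4e was -0.01 (standard error 0.29, interval -0.66 to 0.64, adjusted p = 0.993 in limma), and 0.34 without Control replicate 1, -0.27 without Control replicate 2, 0.17 without both, -0.10 without Control replicate 3 and 0.20, -0.07 and -0.16 without Cripto KO replicates 1, 2 and 3 in turn. That of Clec4d was 0.09 (standard error 0.17, interval -0.29 to 0.47, adjusted p = 0.911 in limma), and 0.25 without Control replicate 1, -0.10 without Control replicate 2, 0.0071 without both, 0.20 without Cripto KO replicate 1 and -0.0097 without Cripto KO replicate 3.

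Clec7a, the receptor for β-glucans of fungi, had values of 396, 513 and 425 in Control replicates 1, 2 and 3 and of 364, 377 and 358 in Cripto KO replicates 1, 2 and 3. The Cripto KO samples lay close together and below all Control samples, and Control replicate 2, the sample with high Lyz2, was the highest. The mean was 445 ± 60.6 (SD, n = 3) in Control against 366 ± 10.0 (SD, n = 3) in Cripto KO, a log2 difference of -0.27 (standard error 0.09, interval -0.48 to -0.06, adjusted p = 0.50 in limma). Without Control replicate 2 it was -0.17 (limma, adjusted p = 0.636) and without both Control replicates 1 and 2 it was -0.22.

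Clec5a had values of 30.1, 34.9 and 32.4 in Control replicates 1, 2 and 3, and of 34.1, 46.2 and 40.8 in Cripto KO replicates 1, 2 and 3. The groups overlapped by a single pair, Control replicate 2 being above Cripto KO replicate 1. The log2 difference was 0.31 (standard error 0.12, interval 0.04 to 0.57, adjusted p = 0.529 in limma), and leaving out Cripto KO replicate 2, the highest sample, gave 0.20, leaving out Cripto KO replicate 1 gave 0.42 and leaving out Control replicates 1 and 2 gave 0.31.

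**Figure D3:**
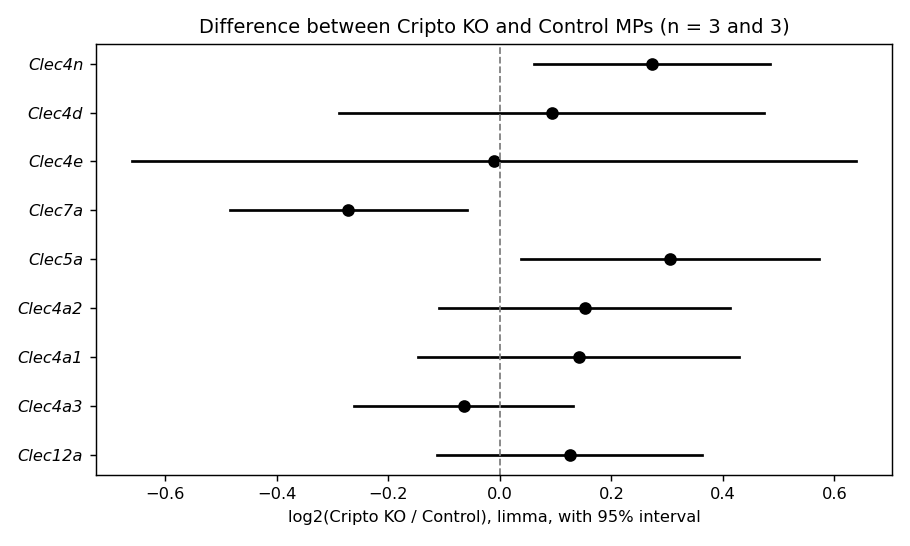
log2 difference (Cripto KO minus Control) of each receptor with its 95% interval from limma, 3 samples against 3, and a dashed line at 0. The intervals of Clec4n, Clec5a and Clec7a do not cross 0 before adjustment over all genes, and that of Clec4e, from -0.66 to 0.64, is the widest.

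Of the receptors with an inhibitory motif, Clec4a2 was 126, 110 and 98.9 in Control against 114, 144 and 115 in Cripto KO replicates 1, 2 and 3. Its log2 difference was 0.15 (interval -0.11 to 0.41, limma), and it was 0.24 without Control replicate 1, 0.15 without Control replicate 2, 0.32 without both, 0.07 without Control replicate 3 and 0.04 without Cripto KO replicate 2. Clec12a was between 278 and 295 in Control and was 265, 361 and 326 in Cripto KO replicates 1, 2 and 3, so that the Control samples lay inside the range of the Cripto KO samples. Its log2 difference was 0.13 (interval -0.11 to 0.36, limma), with 0.25 when Cripto KO replicate 1 was left out, 0.03 when Cripto KO replicate 2 was, and 0.10 without Control replicates 1 and 2. Clec4a1, a relative of Clec4a2 in the same stretch, was 138, 111 and 105 in Control against 127, 150 and 112 in Cripto KO replicates 1, 2 and 3, with a log2 difference of 0.14 (interval -0.15 to 0.43, limma). That of Clec4a1 was 0.26 without Control replicate 1 (unadjusted p-value then under 0.05, limma adjusted p = 0.474), 0.30 without Control replicates 1 and 2, 0.06 without Control replicate 3, 0.03 without Cripto KO replicate 2 and 0.24 without Cripto KO replicate 3. Clec4a3, another relative, was 140 to 165 in Control against 132 to 155 in Cripto KO samples, and its log2 difference of -0.06 (interval -0.26 to 0.13, limma) was 0.0086 without Control replicate 1, 0.029 without Control replicates 1 and 2, -0.11 without Control replicate 3, -0.0099 without Cripto KO replicate 1 and -0.12 without Cripto KO replicate 2. In all 4 genes the groups overlapped, and adjusted p-values were between 0.754 and 0.871 (limma).

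Clec4e and Clec4d varied widely between samples of the same group. The SD of log2 values within groups was 0.52 for Clec4e, larger than in 99.5% of the 2981 genes whose mean value was within 2-fold of it, where the median was 0.10. It was 0.29 for Clec4d (larger than in 96.7% of genes of like level) and 0.21 for Clec4a1 (larger than in 90.1%), and in all 9 receptors it was above the median of such genes, the lowest share being 66.9% for Clec4a3. Clec4e ranged 2.31-fold within Control and 1.67-fold within Cripto KO. Within Control, replicate 1 had the highest value of 6 receptors, and within Cripto KO, replicate 2 had the highest value of 7 and replicate 1 the lowest of 6.

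These differences between samples were shared by some receptors. Clec4d and Clec4e ranked the 6 samples in the same order, Control replicate 1 the highest, then Cripto KO replicates 3 and 2, Control replicate 3, Cripto KO replicate 1 and Control replicate 2. Their Pearson correlation over the 6 samples was 0.897 (two-sided exact permutation p = 0.0125, adjusted p = 0.183 over 36 pairs) and the Spearman correlation was 1 (exact permutation p = 0.00278, adjusted p = 0.1). Without the 2 samples farthest from the median of Clec4d r was 0.944, and r of the deviations from the group means was 0.916. Clec4a1 and Clec4a2 had a Pearson correlation of 0.93 (exact permutation p = 0.00417, adjusted p = 0.15) and a Spearman correlation of 0.943 (exact permutation p = 0.0167, adjusted p = 0.3). Here r was 0.683 without the 2 samples farthest from the median of Clec4a1, and r of the deviations from the group means was 0.918. None of the 36 pairs passed after adjustment and 4 had an unadjusted p-value under 0.05, Clec5a with Clec12a (r = 0.898) and Clec4n with Clec7a (r = -0.826) being the others. For Clec5a with Clec12a, r was 0.104 without the 2 samples farthest from the median of Clec5a. Leaving out those farthest from the median of Clec12a was not tried. The r of the deviations from the group means was 0.954 for this pair. For Clec4n with Clec7a, r was -0.892 without the 2 samples farthest from the median of Clec4n. The r of the deviations from the group means was -0.574 for Clec4n with Clec7a.

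**Figure D4:**
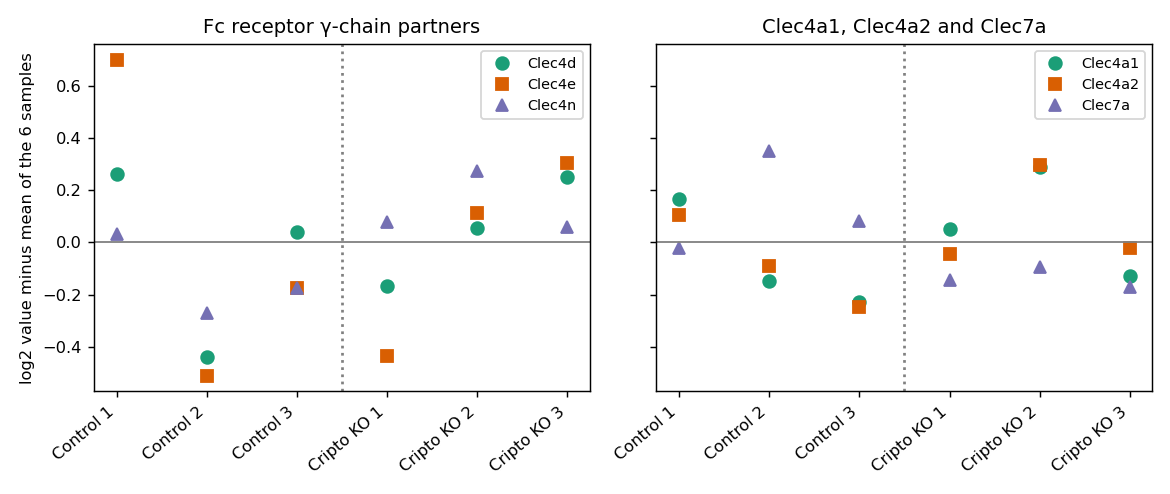
log2 value of 6 receptors in each sample, minus the mean of the 6 samples, with Control left and Cripto KO right of the dotted line. Clec4d and Clec4e rank the samples alike, with Control replicate 1 the highest and Control replicate 2 the lowest, and Clec4a1 and Clec4a2 both have their highest value in Cripto KO replicate 2.

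Genes that act with or after these receptors were read from the same limma fit. Over 28 genes of receptor signaling none had an adjusted p-value under 0.05, as with edgeR and DESeq2, and 4 had an unadjusted one under 0.05 (14.3%, against 8.59% of all genes), 3 of them lower in Cripto KO. The median log2 difference was -0.07, against -0.01 over all genes, and 7 genes had no overlap between the groups (25%, against 14.5% of all genes), of which 6 were lower in Cripto KO (8.02% of all genes). The adaptors had the highest levels per kilobase of exon, at 1597 for Tyrobp and 987 for Fcer1g as means of the 6 samples, followed by the kinase Lyn at 75.0. Vav3, an exchange factor for small GTPases, was 31.8 to 36.9 in Control against 25.4 to 27.3 in Cripto KO samples, a log2 difference of -0.34 (limma, adjusted p = 0.407). Plcg2, the phospholipase downstream of Syk, was 86.5 to 89.3 in Control against 79.5 to 80.1 in Cripto KO (-0.15 on the log2 scale, adjusted p = 0.548 in limma). The adaptor Blnk and the phosphatase Inpp5d had log2 differences of -0.16 and -0.14, also with no overlap, and that of Blnk was -0.09 without Control replicates 1 and 2. The kinase gene Src had the opposite sign, 6.90 to 9.61 in Control against 9.81 to 13.5 in Cripto KO (0.46 on the log2 scale, adjusted p = 0.529 in limma).

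Of the 22 listed target genes of the pathway, 20 were in the table, with a median log2 difference of -0.13 and 16 of them below 0, as were 6839 of all 13008 genes. None had an adjusted p-value under 0.05 in limma or edgeR and 1 (Ptgs2) did in DESeq2, while in 4 the unadjusted one was under 0.05 (20%, against 8.59% of all genes), all lower in Cripto KO (4.6% of all genes). Ptgs2, which encodes cyclooxygenase-2, was 331, 317 and 324 in Control against 252, 243 and 246 in Cripto KO replicates 1, 2 and 3. Its samples were tight and far apart between the groups, with a log2 difference of -0.39 (standard error 0.06, adjusted p = 0.0571 in limma). The adjusted p was 0.0871 in edgeR, 0.000429 in DESeq2 and 0.0369 with the robust option of limma, and went up to 0.336 over the alternatives. Nfkbiz, which encodes a nuclear protein of the IκB family, was 267 to 293 in Control against 215 to 242 in Cripto KO (-0.30 on the log2 scale, adjusted p = 0.327 in limma). The chemokine genes Ccl3 and Ccl4 had log2 differences of -0.44 and -0.28 (limma, adjusted p = 0.47 and 0.517), and Ccl3 overlapped between the groups. Il12b was under 1 in every sample, with a log2 difference of -0.999. Nfkbia, an NF-κB inhibitor, and Ccl4 followed Cxcl2 in level per kilobase of exon, at 471 and 423.

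Among the targets, Tnf and Cxcl2 ranked the 6 samples as Clec4d and Clec4e did, as was seen after their values were known. Cxcl2, a neutrophil-attracting chemokine and the target with the highest level per kilobase of exon (701), was 1943, 1092 and 1398 in Control against 1160, 1511 and 1590 in Cripto KO replicates 1, 2 and 3. Tnf was 189, 155 and 172 in Control against 158, 177 and 180 in Cripto KO replicates 1, 2 and 3. Both were thus highest in Control replicate 1 and lowest in Control replicate 2. The same order was found in 80 of all 13008 genes (0.615%), which include Clec4d and Clec4e themselves.

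Other C-type lectin genes were compared over 30 of 44 listed that were in the table. None had an adjusted p-value under 0.05 (limma, edgeR and DESeq2), 2 had an unadjusted one under 0.05 (6.67%, below the 8.59% of all genes), and the median log2 difference was 0.04. Mrc1, which encodes CD206, had the highest level per kilobase of exon of this list at 97.1, below the ranges of Clec7a and Clec4n. It was 593, 602 and 575 in Control against 677, 647 and 616 in Cripto KO replicates 1, 2 and 3, higher in every Cripto KO sample, with a log2 difference of 0.13 (interval -0.02 to 0.28, limma adjusted p = 0.64). Mrc1 and Colec12 were the 2 genes of this list without overlap (6.67%, against 14.5% of all genes). Cd302 had 67.7, and Clec10a, a galactose-type receptor, had 50.4. Clec10a was 199, 141 and 98.1 in Control against 172, 132 and 135 in Cripto KO replicates 1, 2 and 3, another lectin gene with a wide spread within Control. Selp was 4.77 to 9.53 in Control against 3.22 to 6.57 in Cripto KO (-0.79 on the log2 scale, adjusted p = 0.557 in limma), and Colec12 was 10.3 to 12.8 in Control against 13.7 to 16.1 in Cripto KO (0.30, adjusted p = 0.565 in limma). Without Control replicates 1 and 2 these were -0.22 for Selp and 0.19 for Colec12. Olr1 (-0.40), Cd209b (-0.72) and Mrc2 (0.46) overlapped between the groups, with values under 10 in every sample. Olr1 was at -0.23 and Cd209b at -0.36 without Control replicate 1, and Cd209b was at -0.04 without Control replicates 1 and 2.

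Of 8 listed ligands and partners, none had an adjusted p-value under 0.05 (limma, edgeR and DESeq2), 1 (Lgals9) had an unadjusted one under 0.05 in limma (12.5%, against 8.59% of all genes) and 7 had log2 differences below 0, as did 6839 of all 13008 genes. Lgals9, which encodes a galectin reported to bind the Clec7a protein, was 184 to 194 in Control against 153 to 181 in Cripto KO samples (-0.19 on the log2 scale, adjusted p = 0.533 in limma). Sap130, listed by its name, was 26.6 to 29.3 in Control against 23.8 to 28.2 in Cripto KO (-0.11). Its log2 difference was -0.05 without Cripto KO replicate 1 and -0.17 without Cripto KO replicate 3. The nuclear ligand of the Clec4e protein bears the same name but is encoded by another gene, so these are not values of that ligand. Actb, Actg1 and Anxa1 had log2 differences of 0.11, -0.12 and -0.12, each of which moved by over 1.5 times when 1 sample was left out. The difference of Actb was 0.03 without Control replicate 1 and 0.02 without Control replicates 1 and 2, that of Actg1 -0.05 without Cripto KO replicate 3, and that of Anxa1 -0.02 without Cripto KO replicate 1 and -0.22 without Cripto KO replicate 3. Actg1, Actb and Anxa5 had the highest levels per kilobase of exon (991, 768 and 441).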

How the data were processed

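Ly6C Low MPs were sorted from injured muscle on day 5, with 3 samples per group. Per the labels and the study's methods, the authors trimmed reads with Cutadapt 1.7.1, quantified them on the mouse transcriptome (GRCm38) with RSEM 1.2.20 and normalized them with limma. The deposited unit is a normalized signal per gene. Whole reads were recovered as (value divided by the smallest value of the sample, minus 1) divided by 2, and 100.0% of 78048 values were within 0.01 of a whole read. RSEM splits reads between similar transcripts, and the kit was not stated to keep strand, which bears on paralogs.

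Groups were compared with limma 3.58.1 (R 4.3.3) on log2 values without a pseudocount, with a variance trend, over all 13008 genes, and p-values were adjusted by Benjamini-Hochberg. The study calls the samples of a group biological replicates. Control replicates are numbered here by the sample titles. edgeR 4.0.16 and DESeq2 1.42.0 were run on the recovered reads, and pseudocounts, a filter on low values, other normalizations, limma options, a replicate block and the removal of each sample were tried. The removal of Control replicates 1 and 2 together and the longest transcript as length were added after the data were seen. On simulated counts with 200 changed genes of 13008, limma recovered 34.5% at a 1.5-fold change and 72.5% at a 2-fold change. The changed genes were drawn from all those with a mean value of at least 1. Receptors and lists were chosen with earlier results of these data known. Named are the receptors, the 5 genes of each list with the smallest p or all with an adjusted p-value under 0.05 if there were 5 or more, and the 3 with the highest level per length. Itgam, present under 2 identifiers, was left out. Sums over 5 markers of other dendritic cells were between 7.39 and 11.5. Words of 31 bases came from GENCODE M21 transcripts, promoters from RefSeq. Figures were made with Python 3.11.15 and matplotlib 3.10.9.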

Additional observations from a re-analysis of the deposited data

How the results depend on the processing

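The number of receptors with an adjusted p-value under 0.05 was 0 under each alternative run, and those of the signaling, other lectin and partner lists were 0 as well. The target list had 1 gene (Ptgs2) with the robust option and with DESeq2. Over all genes, 17 in the fit reported, the number was 6 with quantile normalization, 5 without a variance trend, 31 with the robust option, 9 with voom weights, 71 with DESeq2 and 2 with the replicate block, and between 5 (without Cripto KO replicate 2) and 31 (without Control replicate 1) when 1 sample was left out. The replicate block called 0 receptors, and it cannot move a fitted difference in this balanced design, so the median log2 difference of the receptors stood at 0.13 by construction. By the numbers in the sample titles, replicates did not pair the samples, since deviations of same-numbered samples had correlations of -0.21, -0.0052 and -2.5e-05 over 11960 genes. The study does not number the Control samples in one order throughout, so the block and this check hold for the numbers in the titles. When 1 sample was left out, the median log2 difference of the receptors was between 0.03 and 0.25, that of Clec4a3 between -0.12 and 0.0086, that of Clec4d between -0.10 and 0.25, with -0.01 without Cripto KO replicate 3, and that of Clec4e between -0.27 and 0.34, with 0.20 without Cripto KO replicate 1. Clec4e was at 0.024 with quantile normalization. Without both Control replicates 1 and 2, which was chosen after the data were seen and takes the lone Control sample to vary like the other group, Clec4a3 was at 0.029 and Clec4e at 0.17. The cause of these changes was not tested. The other 6 receptors kept their sign in all 18 alternatives. With the longest transcript as length, the levels per kilobase that moved by more than their spread were those of Clec7a (178), Clec4d (98.0), Clec12a (93.8) and Clec4a2 (47.6). The ratios of the receptors were all below 1.5-fold in either direction, the smallest change simulated, at which 34.5% of changed genes were recovered. That share was pooled over genes of many levels and spreads. It was not measured for the receptors, whose spread within groups was above the median of genes of like level.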
